A study of Mus musculus with 42 samples.

Results

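The 10 genes described here encode cytokines of macrophages that drive or restrain inflammation, with the receptors and inhibitors that set their balance. They were chosen by name: Il10, its receptor chains Il10ra and Il10rb, the restraining factors Il1rn, Tgfb1 and Socs3, and the cytokines Tnf, Il6, Il1a and Osm. All 10 were found by Ensembl identifier among the 47643 genes of each table, of which 25110 were above 0 in at least 1 library. The study asked how ageing changes daily gene expression in immune cells. RNA of macrophages from C57BL/6 mice was sequenced at a young age (2 to 3 months) and an old age (18 to 20 months), with no treatment or altered gene named in the labels. The harvest covered 7 points of the light and dark cycle, given as zeitgeber time (ZT, in hours): every 4 h between ZT0 and ZT24. With 3 libraries for each of the 14 combinations of age and time there were 21 per age, or 42.

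Interleukin-10 is a cytokine that macrophages and lymphocytes release to limit inflammation. It binds a receptor of a ligand-specific chain (Il10ra) and a chain shared with other cytokines (Il10rb), whose kinases Jak1 and Tyk2 activate the transcription factor Stat3. Stat3 in turn raises Socs3, which blocks signalling by cytokines that use the gp130 receptor, and Il1rn, which encodes a decoy ligand of the interleukin-1 receptor. Tnf, Il6 and Il1a are released early in inflammation, and their messenger RNAs, like that of Il10, are short-lived.

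The messenger RNA of Il10 carries AU-rich letters in its 3' untranslated region (UTR), where proteins that control decay bind. Il10 lies on chromosome 1 from 131019845 to 131024974 on the plus strand (ENSMUSG00000016529, GRCm38, GENCODE M21). The 3' UTR of its transcript Il10-201 is 706 bases long and holds 4 matches to the heptamer TATTTAT, searched on the transcript strand with overlapping matches counted. They are shown with the densest stretch of Tnf and the pair of Socs3, because Il10 and Socs3 were called for age and Tnf was not. Sequences run 5' to 3', and capitals mark the bases that lie in a heptamer match.
Il10 site 1, chr1:131024388-131024416, plus strand: ctccgaaaTATTTATtacctctgatacct
Il10 site 2, chr1:131024421-131024449, plus strand: tcccattcTATTTATtcactgagcttctc
Il10 site 3, chr1:131024484-131024512, plus strand: ttttacagTATTTATtatttttaacctgt
Il10 site 4, chr1:131024830-131024858, plus strand: cagtttgtTATTTATaaccacctaaaatt
Tnf site 2, chr17:35199686-35199714, minus strand: gcacttatTATTTATTATTTATTTATTAT
Socs3 site 1, chr11:117966136-117966164, minus strand: tgcacataTATTTATATTTATactcagaa

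The heptamer was in the 3' UTR of 7 of the 10 genes, against 26.1% of 20738 genes with an annotated 3' UTR. Tnf held 8 matches, Il10ra, Il1a and Osm 3 each, Socs3 2 and Il6 1, and there was no match in Il10rb, Il1rn or Tgfb1. Longer UTRs hold more letters, so the share among genes whose UTR is 80% to 120% as long is the closer comparison. It was 18.9% for Il10, 19.6% for Tnf, 33.8% for Socs3 and 39.4% for Il1rn, whose 3' UTR of 1864 bases had no match. The longer form TTATTTATT was found only in Tnf (5 matches) and Il10ra (3 matches) among the 10 genes. Genes with and without the heptamer were both among those that rose with age and among those that were not called.

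The labels give macrophage as the cell type and do not name the tissue. All 10 macrophage markers were measured, with a summed level of 266699 to 379489 in the young and 207878 to 354122 in the aged libraries. Levels are in rescaled reads, which are reads brought to 1 scale over all 42 libraries. The young libraries held 7433159 to 13574542 reads and the aged libraries 4864402 to 15587030. Because the libraries mark the 3' end of transcripts, gene length does not enter a value. Nothing in the labels ties each library to its own animal, so the p-values reflect the spread among these libraries, and whether that is a spread among animals is not known. The aged library of ZT0 that is replicate 2 stood apart for several of the genes, and its values are given with each result that it touches.

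Il10 was several times higher in aged than in young macrophages. Over the 21 young libraries it ranged from 0 to 17.9 rescaled reads with a median of 5.05, and over the 21 aged libraries from 4.82 to 82 with a median of 25.8. Of the aged libraries 17 were above the highest young one, and the mean rose from 6.34 ± 5.42 (SD, n = 21) to 30.3 ± 17.2 (SD, n = 21), a ratio of 4.78. The mean level over the day differed by a log2 fold of 2.38 ± 0.33 (SE), with a 95% interval of 1.71 to 3.04 and an adjusted p of 4.84e-07 by limma. This log2 fold averages log2(value + 1) and stands for a 5.19-fold change, so it need not equal the ratio of the means. For genes with few reads its size depends on the 1 added to each value. Of 12109 genes tested, 48 had a larger log2 fold. Il10 was a rare transcript, with 153 reads in all young and 586 in all aged libraries, and 3 young libraries held no read of it. A library with no read allows up to 3 reads by counting error alone, so Il10 cannot be called absent there. The young mean is under the minimum of 10 for testing, which Il10 passed only through the aged libraries; with no minimum the adjusted p was 4.96e-06. In cell samples of this kind, more cells that express a gene and more RNA per cell cannot be told apart.

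**Figure D1:**
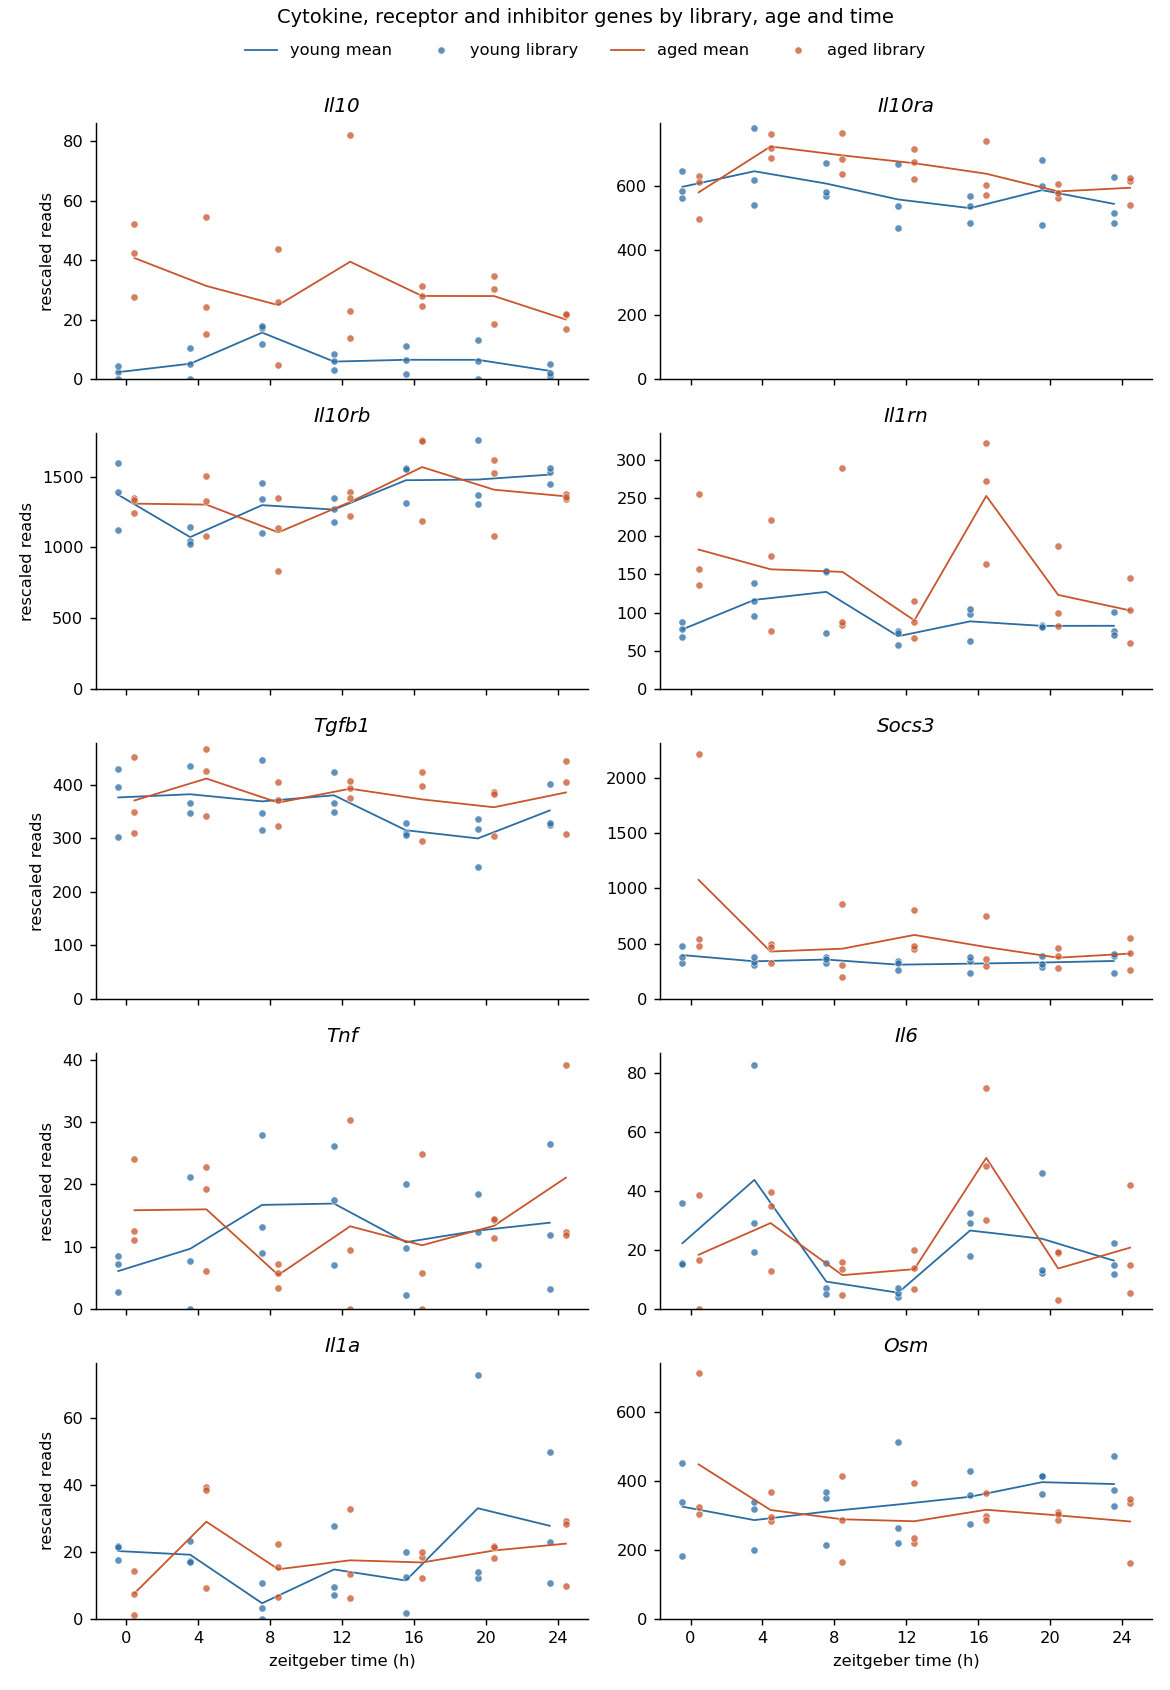
Rescaled reads (vertical axes, each from 0) of the 10 genes by zeitgeber time in hours, with 1 point per library (blue young, orange aged) and lines through the means of 3 libraries; points of the ages are set slightly apart sideways. Aged Il10 lies above young at 6 of 7 times without overlap, while Il10rb, Tnf and Il6 overlap at most times, and 1 aged library at ZT0 reaches 2213 for Socs3.

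The separation of Il10 held through most of the day. At ZT0 the young libraries had 2.41, 0 and 4.38 rescaled reads of Il10 and the aged ones 52.2, 27.5 and 42.4. At ZT4 they had 5.05, 0 and 10.3 against 24.2, 54.6 and 15.1. At both times every aged library was above every young one. At ZT8 the young libraries were at their highest, with 17.1, 17.9 and 11.8, and the aged ones had 43.9, 4.82 and 25.8. This was the 1 time at which the ages overlapped. Values at ZT12 were 8.24, 6.12 and 3.12 in the young against 22.7, 13.7 and 82 in the aged libraries. Values at ZT16 were 11.1, 1.67 and 6.52 against 31.3, 27.9 and 24.6. The aged library of 82 at ZT12 was the highest of all 42, and the ages were again apart at both times. At ZT20 the values of Il10 were 0, 13.1 and 6.16 against 18.5, 30.4 and 34.8. At ZT24 they were 1.01, 2.12 and 4.97 against 21.5, 16.8 and 21.7. Il10 was thus without overlap and higher in aged cells at 6 of 7 times, while 3.28% of all genes tested were so at 4 or more times. The share of genes at 6 or more times was not counted. At a single time the share ran from 7.25% (ZT16) to 9.71% (ZT20).

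Tested 1 time at a time, the age difference in Il10 passed at ZT0 alone, with a log2 fold of 3.94 ± 0.87 (SE) and an adjusted p of 0.0167 by limma. At ZT0, 1 of the 10 genes was called, against 0.793% of all genes tested. This call did not hold without young replicate 2 (adjusted p = 0.137), aged replicate 1 (0.0786) or aged replicate 3 (0.0651) of that time. The log2 fold was 0.23 ± 0.87 (SE) at ZT8 and between 2.20 and 2.79 at the other 5 times, where the adjusted p was 0.101 to 0.3. Limma called none of the 10 genes at ZT4, ZT8, ZT12, ZT20 or ZT24, where 1.35%, 4.01%, 2.06%, 1.65% and 2.09% of all genes tested were called. Those with an unadjusted p under 0.05 were Il10 at ZT4, ZT12, ZT20 and ZT24, Il1a at ZT8 and Socs3 at ZT12, against 14.3%, 16.3%, 12.0%, 12.8% and 13.3% of all genes at these 5 times. EdgeR called none at those times, and DESeq2 called Il10 at ZT12 (adjusted p = 0.0225) and ZT24 (0.0476). A difference among times was tested directly and did not pass for Il10 (limma F-test, adjusted p = 1). None of the 10 genes passed that test by limma, edgeR or DESeq2, while limma called 0.0248% of all genes tested. None of the 10 had an unadjusted p under 0.05 in it by limma, against 5.05% of all genes.

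**Figure D2:**
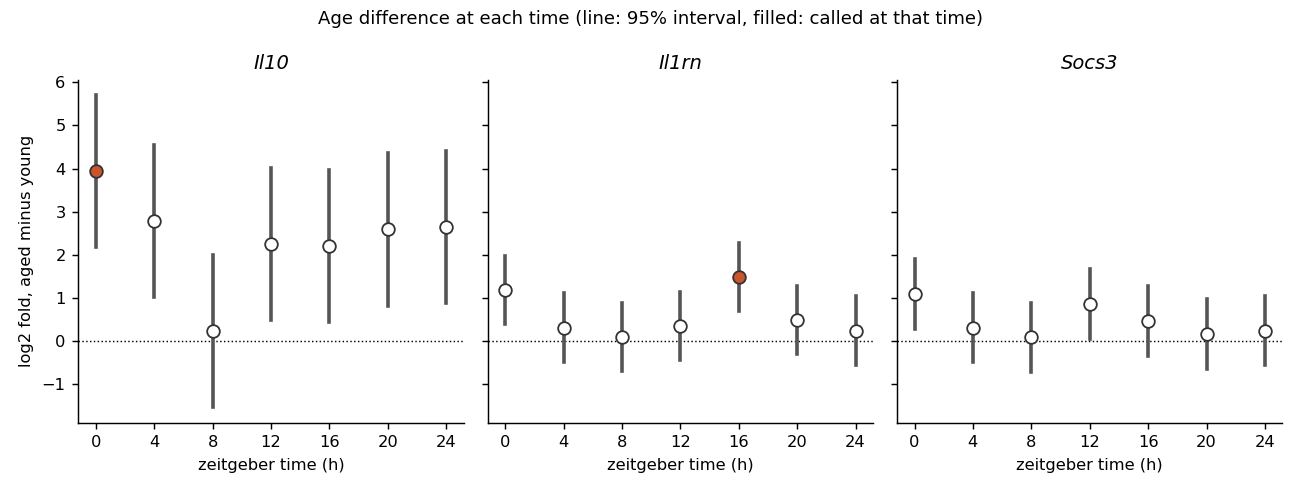
Log2 fold of aged against young (vertical axis) at each zeitgeber time in hours for Il10, Il1rn and Socs3, with 95% intervals as lines and filled points where the adjusted p passed at that time. Il10 is filled at ZT0 (3.94) and near 0 at ZT8 (0.23), Il1rn is filled at ZT16 (1.48), and Socs3 is open at all 7 times.

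Markers of lymphocytes were also higher in the aged libraries, and B and T cells can make interleukin-10. All 11 B cell markers were called higher, and their summed level ran from 10302 to 19359 in the young and from 11350 to 43157 in the aged libraries. Of 10 T cell markers tested, 6 were called higher and Cd28 lower, and the sum ran from 758 to 1336 and from 665 to 2904. The markers of regulatory T cells went both ways. Ctla4 rose (log2 fold 1.83), Ikzf2 (-0.60) and Il2ra (-1.05) fell, and Foxp3 had too few reads to test, with means of 1.66 in young and 0.271 in aged libraries. Their sum ran from 80.1 to 192 in the young (median 139) and from 100 to 334 in the aged libraries (median 189). The 9 markers of fibroblasts and mesothelial cells were low but also higher, with a sum of 0 to 26.7 in the young (median 5.31) and 24.9 to 128 in the aged libraries (median 48.3). Most of it was the matrix gene Dcn, with means of 4.52 and 40.3 and a log2 fold of 3.36 (limma, adjusted p = 2.26e-09). Dcn was the 1 marker of that list with enough reads to test. As for Il10, its young mean is under the minimum of 10, which it passed only through the aged libraries. The ages were nearly apart in this sum, as in Il10, and its part in the Il10 result was not tested. Whether lymphocytes account for any of the Il10 level was not tested. The aged library with the highest B cell sum, 43157 at ZT8, had the lowest aged Il10 at 4.82, and that with the lowest sum, 11350 at ZT0, had an Il10 level of 27.5. The correlation of Il10 with the B cell score, as deviations from group means over 42 libraries, was -0.06, and with the T cell score -0.18. These libraries share depth and cell make-up, and counting error in a transcript as rare as Il10 weakens any correlation, so these are a description. With both scores as covariates the log2 fold of Il10 was 2.58 and stayed called (limma, adjusted p = 0.00101). In that fit 1210 genes were called in place of 2865. The scores themselves differed with age, with means of -0.34 in young and 0.34 in aged libraries for B cells and -0.32 and 0.32 for T cells. The fit therefore cannot separate cell make-up from age.

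**Figure D3:**
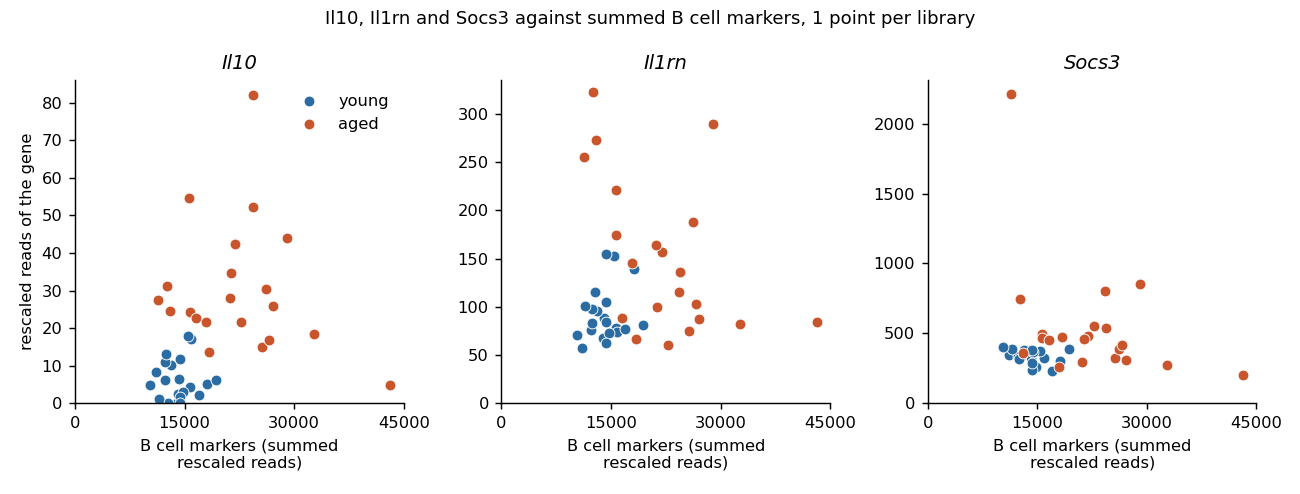
Rescaled reads of Il10, Il1rn and Socs3 (vertical axes) against the summed level of 11 B cell markers (horizontal axes, in rescaled reads), with 1 point per library in blue for young and orange for aged. The aged library farthest to the right, at 43157, has the lowest aged Il10 (4.82) and an Il1rn level of 83.9, and the aged library with the lowest sum, 11350, has the highest Socs3 (2213).

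Over the 10 genes, Il10, Il1rn and Socs3 rose and none fell, which makes 3 called of 10 against 23.7% of all genes tested, with 12.0% of all genes called higher and 11.7% lower. The median log2 fold was 0.12 over the 10 genes and 0.00 over all genes. This share is near that of all genes. The restraining factor Tgfb1, both receptor chains and the 4 cytokines Tnf, Il6, Il1a and Osm were not called. The 95% intervals of Tnf (-0.76 to 0.85), Il6 (-0.71 to 0.60) and Il1a (-0.45 to 0.83) include the log2 folds of Il1rn (0.59) and Socs3 (0.46). A difference between restraining and driving genes was not tested.

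**Figure D4:**
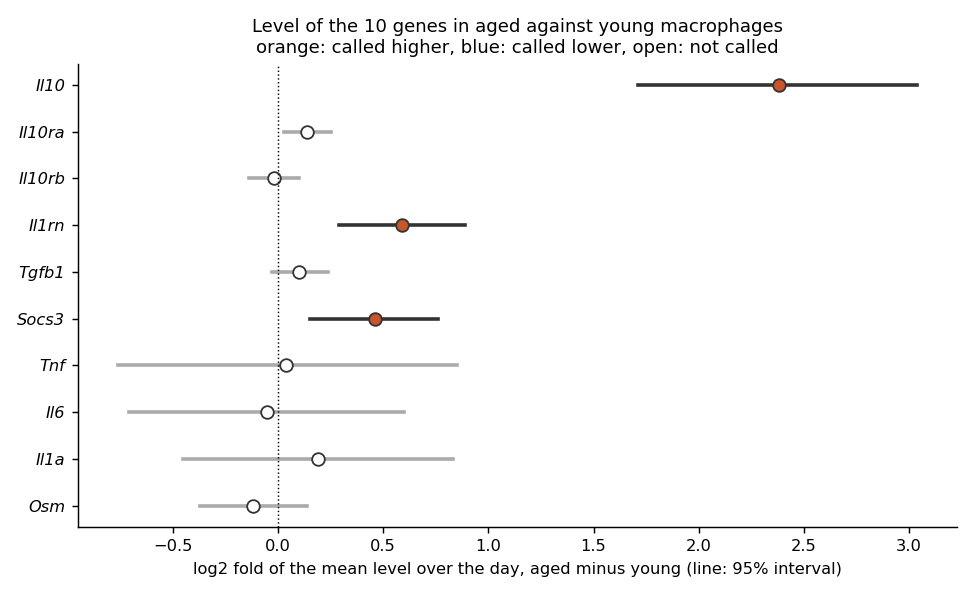
Log2 fold of the mean level over the day, aged against young (horizontal axis), for the 10 genes, with 95% intervals as lines; orange points passed the test and open points did not. Il10 stands at 2.38, Il1rn at 0.59 and Socs3 at 0.46, while the intervals of Tnf (-0.76 to 0.85) and Il6 (-0.71 to 0.60) are wide and span 0.

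The receptor chains of interleukin-10 were far more abundant than the ligand and their log2 folds with age were small. Il10ra (chromosome 9, 45253837 to 45269149, minus strand) ranged from 470 to 779 rescaled reads in young libraries with a median of 569, and from 497 to 764 in aged ones with a median of 624. The ages overlapped widely, although 18 of 21 aged libraries were above the young median. The log2 fold of Il10ra was 0.14 ± 0.05 (SE) and missed the threshold at an adjusted p of 0.0536 (limma). It lay on the edge, since leaving out 1 library brought the adjusted p under the threshold for 12 of the 42 libraries, with a range of 0.0217 to 0.101. Il10rb (chromosome 16, 91406164 to 91425834, plus strand) ranged from 1026 to 1760 in young and from 833 to 1761 in aged libraries. Its log2 fold was -0.02 ± 0.06 (SE), with a 95% interval of -0.14 to 0.10. Il10rb shares part of its span with the gene model Gm21970 on the same strand, so some of its reads may belong to that model. The strand setting of the authors' counting is not given in the sources used here, and Il10ra overlaps the short models Gm20612 and Mir7086.

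Genes downstream of the receptor had smaller log2 folds than Il10. In the list of interleukin-10 receptor signalling, which holds Il10 itself, 4 of 7 genes rose and none fell, with a median log2 fold of 0.14. Besides Il10 and Socs3 these were Stat3, the transcription factor of the pathway, with a log2 fold of 0.25 ± 0.06 (SE, limma adjusted p = 0.00117), and the kinase gene Jak1 with 0.11 ± 0.04 (adjusted p = 0.0162). Tyk2, the other kinase, had a log2 fold of -0.13 and was not called. Among 8 genes that interleukin-10 is known to induce, with Socs3 and Il1rn among them, 5 rose and none fell, with a median of 0.40. Of all genes tested 12.0% were called higher and 11.7% lower, and these shares stand beside every list count here and below. The lists were chosen with earlier results known, and a response to interleukin-10 was not tested. Il4ra, a receptor chain for interleukin-4, went from 1178 ± 115 to 1749 ± 343 rescaled reads (SD, n = 21), a log2 fold of 0.55 (limma, adjusted p = 1.42e-08). Sbno2, a corepressor, had a log2 fold of 0.58 and Nfil3, a leucine zipper repressor, one of 0.34. Bcl3, which restrains NF-kB targets, had a log2 fold of 0.31 and Tnip3 one of -0.52, and neither was called.

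**Figure D5:**
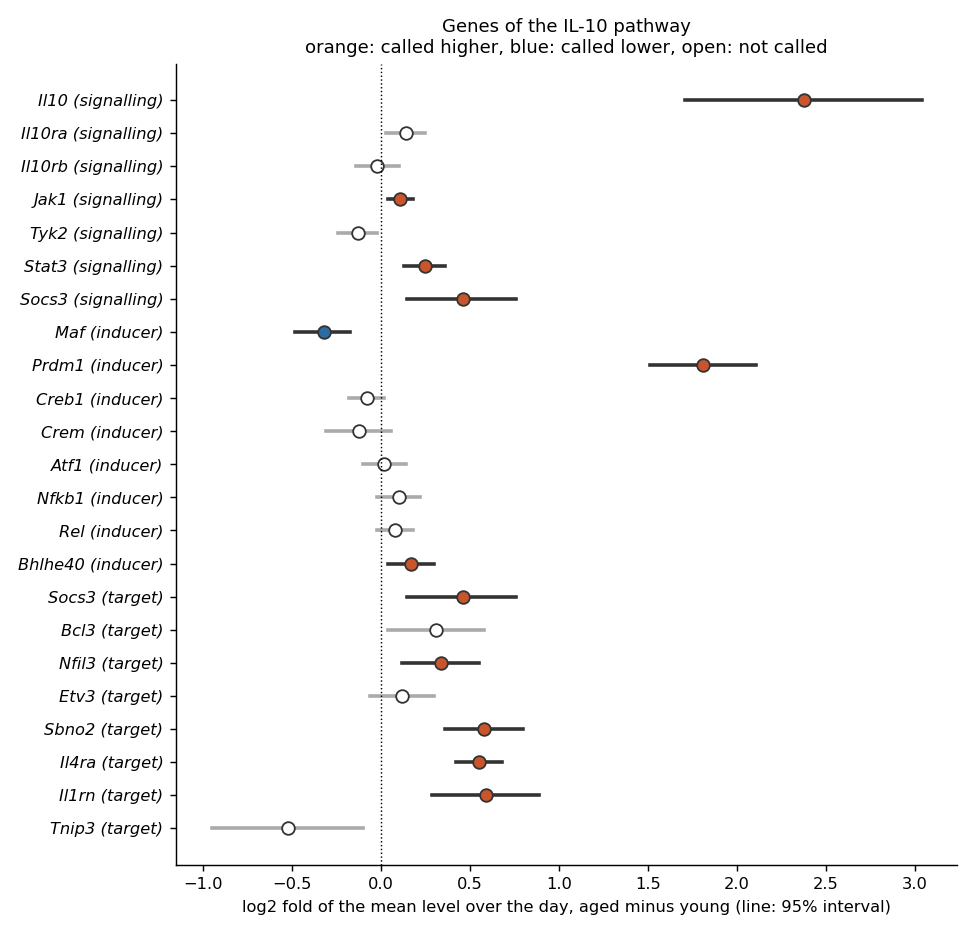
Log2 fold of the mean level over the day, aged against young (horizontal axis), with 95% intervals as lines. Shown are genes of interleukin-10 signalling, transcription factors that induce or control Il10, and genes that interleukin-10 induces. Orange points were called higher, blue lower and open points not called. Bhlhe40 is labelled inducer with the rest of its list but represses Il10. Il10 (2.38) and Prdm1 (1.81) lie far to the right of the rest, Maf is the 1 blue point (-0.32), and the other called genes lie between 0.11 and 0.59; Socs3 appears in 2 lists.

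Of 8 transcription factors that induce or control Il10, Prdm1 and Bhlhe40 rose, Maf fell and 5 were not called. Prdm1, which encodes Blimp-1 and is also a defining gene of plasma cells, went from 79.7 ± 29.4 to 295 ± 143 rescaled reads (SD, n = 21), a log2 fold of 1.81 ± 0.15 (SE, limma adjusted p = 3.39e-12). Of 5 plasma cell markers, Jchain and Mzb1 rose and Sdc1 fell, and their part in the rise of Prdm1 was not tested. Maf, an activator of Il10 in macrophages and T cells, had a log2 fold of -0.32 ± 0.08 (SE, limma adjusted p = 0.00161). Bhlhe40, which represses Il10, had one of 0.17 with an adjusted p of 0.0476. The other cytokines of the interleukin-10 family were scarcely present: Il20, Il22 and Il24 were at 0 in all 42 libraries, and Il19 had a mean of 0 in young and 0.278 in aged cells.

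Il1rn, the interleukin-1 receptor antagonist (chromosome 2, 24336853 to 24351494, plus strand), rose with age. It ranged from 57.7 to 155 rescaled reads in young libraries with a median of 83, and from 60.5 to 322 in aged ones with a median of 136. The aged values spread upward, with 9 of 21 above the highest young library and 17 above the young median. The mean went from 92.1 ± 27.8 to 152 ± 79.4 (SD, n = 21), and the log2 fold was 0.59 ± 0.15 (SE, limma adjusted p = 0.00263). At ZT16 the aged libraries had 322, 164 and 273 rescaled reads of Il1rn against 97.8, 62.8 and 105 in the young. All 3 aged values were above the young ones there, as for 7.25% of all genes tested, and the log2 fold at ZT16 was 1.48 ± 0.39 (SE). The 2 higher of these aged libraries, with 322 and 273, also had the highest monocyte marker sums of all 42, at 17107 and 24896, while that with 164 had 8764 and the young ZT16 libraries 10166 to 11380. Their neutrophil sums were 400 and 590 against 284 in the other aged and 138 to 432 in the young ZT16 libraries. These sums mix genes that went both ways with age. Of the 6 monocyte markers, Chil3 (means of 49 in young and 1062 in aged libraries) and Plac8 rose over the day, while Ccr2 and F13a1 fell. Of the neutrophil markers, S100a8 rose and Retnlg fell. Which markers made the sums of these libraries high was not tested. The library with 273 also lay farthest from its group over all genes (root mean square deviation 0.55 on the log2 scale). At ZT8, aged replicate 2 had a monocyte sum of 16976 and an Il1rn level of 83.9, and aged replicate 1 had 7966 and 289. Without the library of 322 the log2 fold of Il1rn at ZT16 was 1.28 (limma, adjusted p = 0.152) and without that of 273 it was 1.40 (0.2), and the part of the monocyte and neutrophil markers was not tested. The adjusted p of 0.0498 made Il1rn the 1 gene of the 10 called at ZT16, against 1.07% of all genes tested. That call rests on the exact setting: it was lost on leaving out 1 library for 30 of 42 libraries, with an adjusted p of 0.0202 to 0.239. In the fit with the B and T cell scores the log2 fold of Il1rn over the day was 1.20.

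Other genes of the interleukin-1 system moved in part. Of 11 measured genes, 3 rose and none fell, with a median log2 fold of 0.19, while 23.7% of all genes tested were called in either direction. Beside Il1rn these were Il18bp, a secreted protein that binds interleukin-18 (log2 fold 0.83 ± 0.19 SE, limma adjusted p = 0.000839), and Irak3, an inhibitor of receptor signalling (0.26 ± 0.06 SE, adjusted p = 0.00179). All 3 encode inhibitors, but Sigirr, another inhibitor, had a log2 fold of 0.42 and was not called. The agonist genes Il1a, Il1b and Il18 had log2 folds of 0.19, 0.54 and 0.06 and were not called either. That of Il1b, with a 95% interval of 0.02 to 1.05, was near the 0.59 of Il1rn and above the 0.26 of Irak3. A difference between inhibitors and agonists was not tested. Il1a (chromosome 2, 129299610 to 129309972, minus strand), an alarm cytokine, ranged from 0 to 72.6 rescaled reads in young and from 1.13 to 39.4 in aged libraries. These ranges overlapped over nearly their whole length. The 95% interval of its log2 fold, -0.45 to 0.83, leaves room for changes of either sign, and Gm14023 lies antisense to Il1a over most of its span.

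Socs3, the feedback inhibitor of Stat3 signalling (chromosome 11, 117966079 to 117970047, minus strand), rose with age. Its promoter in the RefSeq table for GRCm38.p6 holds 1 match to the Stat motif TTCNNNGAA, searched on both strands of the 250 bases before the start site. The match begins 154 bases before that start, and 7.02% of 32851 promoter windows hold one. The stretch lies inside the GENCODE span of Socs3 given above, so the RefSeq start is downstream of the 5' end of that span. The match is shown because Stat3 binds letters of this form, with capitals on its bases.
Socs3 promoter, chr11:117969502-117969530, minus strand: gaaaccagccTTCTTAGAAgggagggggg

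Of the 10 genes, 6 had a window in that table, and Il1rn, Tgfb1, Tnf, Il6 and Il1a had no match to TTCNNNGAA in theirs. Socs3 ranged from 232 to 482 rescaled reads in young libraries with a median of 339, and from 200 to 2213 in aged ones with a median of 457. Its aged spread was wide, with 7 libraries above the highest young one and others as low as the young. The mean went from 342 ± 59.5 to 541 ± 420 (SD, n = 21), and the log2 fold was 0.46 ± 0.15 (SE, limma adjusted p = 0.0228). Socs3 in the aged ZT0 libraries was 539, 2213 and 478, and the second value was 4.35 times the mean of the others. Without that library the log2 fold of Socs3 was 0.36 and stayed called (adjusted p = 0.0375). Without all ZT0 libraries it was 0.35 and did not pass (adjusted p = 0.0702), nor did Socs3 pass with no minimum level for testing (0.0642). In the fit with the B and T cell scores it was 1.23 (limma, adjusted p = 1.63e-05). Of the 8 genes of the SOCS family Socs3 alone rose, while Socs6 (log2 fold -0.55) and Socs7 (-0.17) fell and 5 were not called.

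Tgfb1, which encodes a cytokine that restrains macrophages and builds matrix (chromosome 7, 25687002 to 25705077, plus strand), did not pass the test for age. It ranged from 246 to 446 rescaled reads in young libraries with a median of 347, and from 296 to 467 in aged ones with a median of 386. The ages overlapped at all 7 times, and the log2 fold of 0.10 ± 0.07 (SE) did not pass (limma, adjusted p = 0.273). Its 95% interval, -0.03 to 0.24, leaves room only for a small change. Of 16 measured genes of the TGF-beta system, 4 rose, 1 fell and 11 were not called, with a median log2 fold of 0.00. Those that rose were the ligand gene Tgfb2 (0.20), the receptor gene Tgfbr2 (0.30), Ltbp1, which stores latent TGF-beta (0.31), and Skil, an inhibitor of Smad proteins (0.26). Nrros, which anchors latent TGF-beta on macrophages, fell by 0.22 on the log2 scale.

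Tnf (chromosome 17, 35199381 to 35202007, minus strand), the tumour necrosis factor gene, was rare at both ages. It ranged from 0 to 27.9 rescaled reads in young libraries with a median of 9.78, and from 0 to 39.1 in aged ones with a median of 11.8. With 285 and 256 reads over all young and all aged libraries, the log2 fold of 0.04 ± 0.40 (SE) has a 95% interval of -0.76 to 0.85. A change as large as that of Il1rn lies inside this interval and was not detectable in Tnf at this depth. Of 9 genes of the TNF system 3 rose and none fell, with a median log2 fold of 0.01. Tnfaip3, which encodes the inhibitor A20, had a log2 fold of 0.69 ± 0.14 (SE, limma adjusted p = 0.000264). Rhbdf2, needed for Tnf release, had one of 0.24 and the receptor gene Tnfrsf1b one of 0.14. Of 8 measured genes that NF-kB induces, Tnfaip3 alone was called, and the median log2 fold was 0.15. Of 11 genes in the list of cytokine messenger decay, which holds proteins that bind AU-rich letters, Zfp36l1 (0.25) was the 1 gene called.

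Il6 and Osm signal through receptors that hold gp130. Il6 (chromosome 5, 30013114 to 30019981, plus strand) ranged from 4.12 to 82.7 rescaled reads in young libraries with a median of 15.5, and from 0 to 75.1 in aged ones with a median of 16.6. Its log2 fold was -0.05 ± 0.32 (SE, limma adjusted p = 0.932), and the sign turned under several settings. Osm (chromosome 11, 4236420 to 4241026, plus strand), which encodes oncostatin M, ranged from 183 to 512 with a median of 351 in young and from 162 to 714 with a median of 305 in aged libraries. Its log2 fold was -0.12 ± 0.13 (SE, limma adjusted p = 0.563), and 16 of 21 aged libraries were below the young median. Of 8 measured genes of the gp130 group, Ebi3 (log2 fold 0.47) and Il27 (0.89), whose products form interleukin-27, rose. Il27 was rare, with means of 9.73 in young and 14.9 in aged libraries, and lay near the threshold (limma, adjusted p = 0.0488). Its young mean is under the minimum of 10 for testing, which it passed only through the aged libraries. Lifr, a receptor chain of leukaemia inhibitory factor, fell by 0.76 on the log2 scale (limma, adjusted p = 7.87e-07). Osmr, the receptor of oncostatin M, was near 0, with means of 0.144 and 0.659.

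The aged ZT0 library that is replicate 2 was above the other 2 aged ZT0 libraries for several of these genes at once. Against the mean of the other 2 aged ZT0 libraries, Il6 was 4.64 times, Socs3 4.35 times, Il1a 3.36 times, Osm 2.27 times and Il1rn 1.74 times as high. Il10 was 0.582 times and Tnf 0.604 times that mean, so the genes did not all go one way. The ratios of Il6 and Il1a rest on few reads. This library held 35 reads of Il6 against 0 and 9 in the other 2, and 13 reads of Il1a against 1 and 4. Its Il1a level of 14.3 was under the aged median of 18. Its Il6 level of 38.5 was under the highest aged one of 75.1. In the same library Bcl3 was at 2569 against 702, Hmox1, a heme-degrading enzyme gene, at 1854 against 428, and Spp1, which encodes osteopontin, at 435 against 39.2. It had the lowest B cell sum (11350) and the lowest monocyte sum (5526) of the aged libraries and the highest fibroblast and mesothelial sum (128) of all 42, and the part of these in its cytokine values was not tested. Without it the calls of Il10, Il1rn and Socs3 remained, with log2 folds of 2.41, 0.55 and 0.36.

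None of the 10 genes passed the test for a 24 h rhythm. In young macrophages 0 of the 9 genes tested were called by limma, against 3.62% of all genes tested, and 3 had an unadjusted p under 0.05, against 17.2% of all genes. In aged macrophages 0 of 10 were called, against 0.308% of all genes tested, and 1 had an unadjusted p under 0.05, against 9.01% of all genes. EdgeR and DESeq2 also called none at either age, but DESeq2 gave no adjusted p for Tnf, Il6 and Il1a in the young. Il10 fell under the minimum level in the young table, and with no minimum its adjusted p for a rhythm was 0.538. The lowest young p was that of Il10rb, with a fitted peak at ZT 18.8 ± 1.03 (SE) and a peak-to-trough fold of 1.30 (limma, adjusted p = 0.118). In aged cells the fitted peak of Il10rb was at ZT 18.5 with a fold of 1.28 (adjusted p = 0.57). Without young ZT8 replicate 2 the young adjusted p of Il10rb was 0.0488.

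Il1a and Il6 had the widest fitted swings in the young, with large errors. In young cells the fit for Il1a peaked at ZT 22.1 ± 1.37 (SE) and swung 4.04-fold from trough to peak (limma, adjusted p = 0.176). That for Il6 peaked at ZT 22.9 ± 1.64 (SE) and swung 2.61-fold (adjusted p = 0.28). In aged cells the fits were 1.10 for Il1a and 1.66 for Il6, and neither was called. The difference in rhythm between ages was tested directly and passed for none of the 10 genes. Its lowest unadjusted p was 0.0476 for Tnf, with an adjusted p of 0.999 (limma). No gene of the 12109 tested passed that test, 494 (4.08%) had an unadjusted p under 0.05, and edgeR called 4 and DESeq2 7. Of the other genes in the lists, Nfil3 (fold 3.05, adjusted p = 2.05e-06), Lifr (1.44, 0.0186), Tgfbr2 (1.50, 0.0122) and Ltbp1 (1.33, 0.0298) were called rhythmic in young macrophages by limma, and none was in aged ones.

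Genes with a profile like that of Il10 were sought by correlation, as a description. Over the 14 group means the 5 most alike were Cttn (Pearson r 0.92), Slc41a2 (0.91), Mmp14 (0.91), P2rx4 (0.90) and Akr1c12 (0.89), all of which were higher in aged cells. Such a likeness over group means holds mostly the age difference itself. Mmp14, a membrane metalloproteinase gene, went from 5.16 to 34.9 rescaled reads and Cttn, which encodes cortactin, from 8.44 to 35.1. As for Il10, the young means of both are under the minimum of 10, which they passed only through the aged libraries. Over the deviations of 42 libraries from their group means the 5 most alike were others: Arv1 (0.70), Polr2l (0.66), Lmo4 (0.59), Rsl24d1 (0.57) and Ppp1r3d (0.56), none of them called for age. Among the 10 genes, the largest correlations of these deviations were 0.50 for Socs3 with Il6, 0.47 for Il1rn with Socs3, 0.41 for Il10rb with Osm and 0.39 for Il10 with Il10ra. The libraries share depth and cell make-up, and the aged ZT0 replicate 2 library is above the others of its group for Socs3, Il6 and Il1rn together.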

How the data were processed

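The 42 libraries were made from total RNA with a QuantSeq 3' end kit (per the labels' protocols). Per the submitters' processing notes, the tools were STAR and DESeq2 with genome build mm10. The sources used here do not give versions, the counter or the annotation. What the authors deposited is a signal: reads divided by the size factor of the library, in separate tables for young and aged. Whole reads were recovered for 100% of values (tolerance 0.001) by dividing through the smallest step of a library. All 42 libraries were then brought to 1 scale by the median of ratios ("rescaled reads"). Reads per library were 7433159 to 13574542 in young and 4864402 to 15587030 in aged cells. They are not independent molecules, so limits from counts cover counting error only. All 42 pairs of libraries within a group differed by more than sampling noise (chi-square per gene 7.82 to 59.1).

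Values were tested as log2(value + 1) where a gene averaged 10 or more, and limma-trend (limma 3.58.1, R 4.3.3) was fitted over all genes with 14 group means. Contrasts gave the mean level over the day, the level at each time and the age difference among times. Rhythms were fitted as a cosine and sine of 24 h on the deposited signal of each age, and their difference on rescaled reads. Calls use a threshold of 0.05 on p-values adjusted by Benjamini-Hochberg over all genes tested. Alternatives were the pseudocount, filter, scaling, edgeR 4.0.16, DESeq2 1.42.0, a replicate block, marker scores as covariates, ZT0 or ZT24 left out, 7 time levels and each library left out; array weights were added after seeing the data. The tests were checked on simulated data. The 10 genes and all gene lists were chosen with earlier results of these data known. Named are the 10 genes, up to 4 called genes of lowest p of each list and any called for rhythm, and the 5 genes most like Il10; other genes named were chosen after their values were seen. Sequences are from GENCODE M21 transcripts (longest 3' UTR of principal transcripts) and the RefSeq promoter table.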

Additional observations from a re-analysis of the deposited data

How the results depend on the processing

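Of 3389 results for the 10 genes under an alternative, 3288 kept their direction and side of the threshold, 39 lost a call, 21 gained one and 41 changed sign. Many of these could hardly change, so the share kept is no measure of firmness. Leaving out a library of another time barely alters the fold at a given time, and many tests lay far from the threshold. Il10 stayed called over the day in every alternative that tested it, with log2 folds from 1.65 to 2.60; at a mean of at least 30 it was not tested. Leaving out each library gave 2.22 to 2.50.

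Signs turned, without a call, for Il6 over the day (0.02 at a pseudocount of 5, 1.23 with B and T cell scores, 0.15 without ZT0, 0.17 by edgeR and by DESeq2), Tnf (-0.17 without ZT0, -0.07 without ZT24), Il10rb (0.04) and Osm (0.12) with the scores, and Il1rn (-0.21) and Socs3 (-0.14) at ZT8 with array weights. The causes were not tested. Leaving out each library turned signs of results that were not called, over ranges of -0.04 to 0.01 for Il10rb, -0.14 to 0.24 for Tnf and -0.21 to 0.17 for Il6 over the day, -0.39 to 1.09 for Il10 at ZT8, -0.01 to 0.76, -0.49 to 0.40 and -0.05 to 0.57 for Il1rn at ZT4, ZT8 and ZT24, and -0.52 to 0.53 and -0.02 to 0.52 for Socs3 at ZT8 and ZT24.

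Of the 10 genes, 0 in place of 1 were called at ZT16 with a pseudocount of 0.5, no filter, TMM scaling or the replicate block, and 0 at ZT0 with a mean of at least 30. The scores gave 3 at ZT0, 1 at ZT12 and 1 at ZT24, and DESeq2 1 at ZT12 and 1 at ZT24. Replicate numbers did not pair libraries (median correlation of same-numbered libraries 0.00 in young and -0.01 in aged; 10 and 14 of 63 pairs over 0.1). Under the replicate block the log2 fold of Il1rn at ZT16 was 1.48 (adjusted p = 0.0715).

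Genes called over the day went from 2865 to 1210 with the scores. At single times they went from 96 at ZT0 to 63 with no filter, 212 with array weights and 166 by DESeq2; from 163 at ZT4 to 275 by DESeq2; from 485 at ZT8 to 144 with the scores; from 250 at ZT12 to 402 with array weights; from 129 at ZT16 to 236 by DESeq2; from 200 at ZT20 to 126 with no filter, 62 with the scores and 510 with array weights; and from 253 at ZT24 to 166, 140 and 651. The age difference among times went from 3 genes to 5 at a pseudocount of 5 and with the scores, 9 with no filter, 7 by edgeR and 26 by DESeq2. Differences in rhythm went from 0 to 7 at a pseudocount of 5 and by DESeq2, 4 with the scores, without ZT0 and by edgeR, 3 with 7 time levels and 1 with array weights. Young rhythms went from 438 to 236 with no filter, 262 without ZT0 and 737 by DESeq2, and aged ones from 37 to 91 by DESeq2. Leaving out each library gave 47 to 125 genes at ZT0, 73 to 205 at ZT4, 153 to 627 at ZT8, 103 to 296 at ZT12, 56 to 193 at ZT16, 33 to 227 at ZT20 and 32 to 452 at ZT24.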

Other observations

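Immediate early genes, which respond within minutes to stimulation, moved in both directions. Of 11 measured, 3 rose, 1 fell and 7 were not called over the day (limma, adjusted p under 0.05), with a median log2 fold of 0.07. Egr1 went from 600 ± 204 to 865 ± 253 rescaled reads (SD, n = 21), a log2 fold of 0.55, and Jun and Junb had 0.27 and 0.19. Atf3, a repressor of cytokine genes, fell by 0.26 on the log2 scale. The monocyte genes Ccr2 and F13a1 fell by 0.92 and 1.03, while Chil3 and Plac8 rose. Ctla4, an inhibitory receptor listed with the regulatory T cell markers, had a log2 fold of 1.83, while Il2ra and Ikzf2 of the same list fell by 1.05 and 0.60.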
